A study of Drosophila melanogaster with 2 samples.

Results

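Peaks of the Lame duck protein that were called in replicate 2 and not in replicate 1 were the subject: 2359 of the 5544 replicate 2 peaks on the 6 main arms of the genome (X, 2L, 2R, 3L, 3R and 4). They were chosen by a rule: a peak of the thresholded set of replicate 2 that overlapped no peak of the thresholded set of replicate 1 by at least 1 bp. That is 42.6% of the replicate 2 peaks (Wilson 95% interval 41.3 to 43.9). They are called replicate 2 only peaks here, and the other 3185 replicate 2 peaks are called shared. Chromatin immunoprecipitation followed by sequencing (ChIP-seq) had been done on whole Drosophila melanogaster embryos, 0 to 18 hours old, from a strain with an insertion that expresses lmd-eGFP, and the fusion was pulled down with an antibody to GFP. Both libraries are biological replicates of that 1 group, made from chromatin sonicated to 200 to 800 bp. The labels do not say whether the strain keeps its own lmd, nor how the insertion is driven. Whole embryos mix muscle precursors with all other tissues, and control libraries were not analysed here. The rule used the signal and repeatability of peaks, so these values are described below without tests. Gene position and sequence were not used by it. Peaks are not replicates, so each p-value and interval below covers counting error only, and the read depth of both libraries is unknown.

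Lame duck, the product of lmd, binds DNA through zinc fingers like those of the Gli proteins. Larval muscles form when fusion-competent myoblasts join founder cells. Fusion-competent myoblasts need lmd, and it acts upstream of Mef2, a MADS-box regulator of muscle genes, and of sns, an adhesion receptor of fusion-competent myoblasts. Promoters of broadly expressed fly genes carry other words. DREF and BEAF-32 bind words built around CGATA, and M1BP binds a core promoter word with GGTCACACT.

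The sequences around summits, the highest points of peaks, show what the words look like in single peaks. They were picked by signal and by the words they hold, so they do not show how often a word occurs in either set. Capitals mark matches, on either strand, of the DREF word TATCGATA, the BEAF-32 word CGATA (which lies inside the DREF word) and the M1BP word GGTCACACT. Each line gives 50 bases on each side of a summit or, where that window reached an annotated UTR, the stretch outside it or the 30 bases around the match. Sequences are the plus strand of the RefSeq Release 6 genome, with dm6 coordinates. The peaks at CG7737, Ufc1, Tsp42Eg and mRpL41 and all others on their arm are not shown, and each peak is shown once. The first group holds the 3 replicate 2 only peaks of highest signal on the other arms, and its windows hold none of these words.
Gapdh2 (chrX:15867931-15868031): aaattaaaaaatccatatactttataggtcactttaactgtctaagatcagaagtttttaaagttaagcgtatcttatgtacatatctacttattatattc
nebu (chr3L:12843210-12843310): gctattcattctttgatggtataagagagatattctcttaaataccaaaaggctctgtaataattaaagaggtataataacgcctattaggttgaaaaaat
tin (chr3R:21378713-21378813): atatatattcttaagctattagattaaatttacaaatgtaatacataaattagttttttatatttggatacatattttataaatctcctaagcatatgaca
The second group holds the replicate 2 only peaks of highest signal on those arms with the BEAF-32 word within 50 bp of the summit, a narrower window than the 100 bp of the counts below.
dnc (chrX:3329031-3329131): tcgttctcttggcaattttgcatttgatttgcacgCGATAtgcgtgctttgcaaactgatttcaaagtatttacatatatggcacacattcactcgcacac
Rap1 (chr3L:1862231-1862260): cgatggcacTATCGgcactcgcaggccgag
Aldh (chr2L:9388173-9388273): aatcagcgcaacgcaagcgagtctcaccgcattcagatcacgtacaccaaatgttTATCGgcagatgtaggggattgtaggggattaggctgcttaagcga
Sqor (chr3L:4239642-4239742): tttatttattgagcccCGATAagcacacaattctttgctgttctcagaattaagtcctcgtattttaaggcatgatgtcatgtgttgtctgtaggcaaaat
The third group holds, by the same rule, those of highest signal with the DREF word and then the M1BP word, all of them at promoters.
CG3337 (chr3R:21223585-21223681): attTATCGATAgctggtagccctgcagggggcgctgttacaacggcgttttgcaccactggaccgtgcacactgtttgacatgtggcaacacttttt
RpS29 (chr3R:9778046-9778075): atcgtggaaaaTATCGATActgccaccccc
CG7006 (chr3R:24850546-24850626): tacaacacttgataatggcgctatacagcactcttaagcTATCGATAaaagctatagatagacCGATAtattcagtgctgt
Rnp4F (chrX:5322697-5322796): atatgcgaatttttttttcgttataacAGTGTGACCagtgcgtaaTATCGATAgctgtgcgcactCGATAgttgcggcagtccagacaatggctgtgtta
Vha68-2 (chr2L:12974132-12974232): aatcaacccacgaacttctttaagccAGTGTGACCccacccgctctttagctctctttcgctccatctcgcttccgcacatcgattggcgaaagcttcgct
slmo (chr2L:6047968-6047997): tgggctagggtGGTCACACTggcgcagtaa
The last group holds the 4 shared peaks of highest signal on those arms, and CG14100 and Tcs5 hold the BEAF-32 word.
CG14100 (chr3L:19590570-19590670): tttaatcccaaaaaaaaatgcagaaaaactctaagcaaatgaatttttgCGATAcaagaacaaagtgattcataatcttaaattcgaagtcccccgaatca
Ugalt (chrX:2703853-2703943): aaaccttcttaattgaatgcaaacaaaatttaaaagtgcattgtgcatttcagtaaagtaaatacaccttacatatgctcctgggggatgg
Tcs5 (chr3L:5139445-5139545): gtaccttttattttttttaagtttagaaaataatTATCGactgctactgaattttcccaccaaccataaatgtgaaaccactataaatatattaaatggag
CG11050 (chr2L:6612665-6612765): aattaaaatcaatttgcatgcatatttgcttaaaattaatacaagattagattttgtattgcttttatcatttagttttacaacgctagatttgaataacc

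The replicate 2 only peaks were weak members of the replicate 2 set. Signal here means the peak caller's own value in the deposited list, with no stated unit. Its median was 61.8 in replicate 2 only peaks, with a range of 2.23 to 674.9, against 128.8 in shared peaks, with a range of 2.05 to 2879. When all replicate 2 peaks were divided into 10 groups of nearly equal size by signal, replicate 2 only peaks made up 72.8, 75.6, 67.9, 60.9, 54.3, 41.3, 27.03, 17.2, 7.58 and 0.901% of the groups, in order of increasing signal. In the group of highest signal, 5 of 555 peaks were replicate 2 only. They were not confined to low values, however, since the strongest ranked 98 among all replicate 2 peaks.

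**Figure D1:**
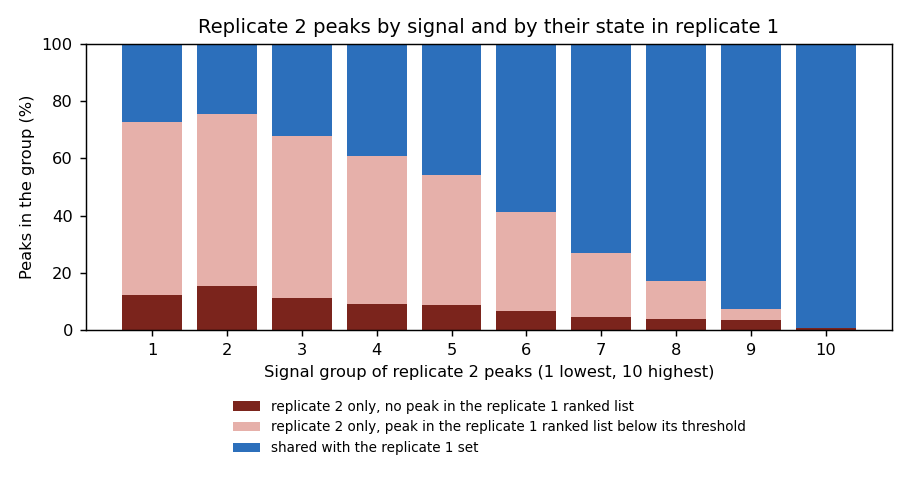
Bars show replicate 2 peaks (%) in each of 10 signal groups, from the lowest (1) to the highest (10), by their state in replicate 1. Replicate 2 only peaks make up 75.6% of group 2 and 0.901% of the highest.

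Most replicate 2 only peaks had a weak counterpart in replicate 1. Of the 2359, 1936 (82.1%, 80.5 to 83.6) overlapped a peak of the unthresholded ranked list of replicate 1, which held 115082 peaks, so an overlap there is easily met. The median rank of that counterpart by signal was 9181, against 1645 for the counterparts of shared peaks, and its median signal was 31.1, against 100.8. The irreproducible discovery rate (IDR) is low where lists place a peak at ranks that are both alike and high, and the thresholded sets correspond to 0.01 or less. Weak peaks can have a high IDR even at like ranks. The lists compared for each replicate's own IDR are not named here, so a high value is not read as disagreement between the replicates. The counterpart's IDR was above 0.01 and at most 0.05 for 355 replicate 2 only peaks, up to 0.1 for a further 131, up to 0.5 for 451 and higher for 998. It was at or under 0.01 for 1 peak, whose counterpart in the ranked list met the threshold although the thresholded set has no peak there. The remaining 423 (17.9%, 16.4 to 19.5) overlapped nothing in the ranked list. Their signal in replicate 2 had a median of 61.4, close to the 61.9 of those with a counterpart.

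Peaks next to the boundary of the rule were picked by their replicate 1 IDR, so its like values follow from that choice. Their replicate 2 signals are given as ranges only, with no comparison made. The 10 replicate 2 only peaks whose counterpart came closest to the threshold had a replicate 1 −log10 IDR of 1.985 to 1.997, just under 2, and a replicate 2 signal of 47.8 to 266.7. The 10 shared peaks just past it had 2.002 to 2.020, and a replicate 2 signal of 38.6 to 169.6. A summit of the replicate 1 set lay within 500 bp of 33 replicate 2 only summits, although the peaks did not overlap. Of the 423 with no counterpart, 176 (41.6%) had some replicate 1 ranked summit within 1000 bp.

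The authors also called peaks on both replicates together. The conservative joint set covered 948 replicate 2 only peaks (40.2%, 38.2 to 42.2), against 3152 shared peaks (99.0%, 98.6 to 99.3). The wider joint set covered 1753 replicate 2 only peaks (74.3%, 72.5 to 76.0), against 3147 shared peaks (98.8%, 98.4 to 99.1). The wider set covered slightly fewer shared peaks than the conservative set, so it did not contain all of that set. Both joint sets were made with replicate 2, so neither is independent of it. Among replicate 2 only peaks with no replicate 1 counterpart, 32 of 423 (7.57%) were in the conservative set and 162 (38.3%) in the wider set, against 916 (47.3%) and 1591 (82.2%) of the 1936 with a counterpart.

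Replicate 2 only summits lay at promoters more often than shared summits, and less often in introns. Promoter means here at most 500 bp from any start of transcription (TSS) of a protein-coding gene. Of 2359 replicate 2 only summits, 1153 were promoter summits (48.9%), against 1350 of 3185 shared summits (42.4%), a difference of 6.49 percentage points (Newcombe 95% interval 3.84 to 9.13, two-sided Fisher's exact test, adjusted p = 5.3e-06). Introns held 770 replicate 2 only summits (32.6%), against 1260 shared summits (39.6%), a difference of -6.92 points (-9.45 to -4.37, Fisher's exact test, adjusted p = 8.0e-07). Coding sequence held 29 (1.23%), against 9 (0.283%), with an adjusted p of 8.1e-05 by Fisher's exact test. 3′ UTRs held 32 (1.36%), against 22 (0.691%), with an adjusted p of 0.0268 by Fisher's exact test. With signal groups as strata the coding and 3′ UTR calls were lost (0.514 and 0.666 points), and the intron difference was -14.7 points. The classes outside protein-coding genes and 5′ UTR did not pass, with 366 (15.5%) against 533 (16.7%) and with 9 (0.381%) against 11 (0.345%). The differences there were -1.22 points (-3.16 to 0.750) and 0.0362 points (-0.290 to 0.411). The class outside genes passed with signal groups as strata, with -5.80 points (exact conditional test, adjusted p = 3.2e-06), and in the lower 50% of signal, with -8.31 points (Fisher's exact test, adjusted p = 3.8e-07).

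**Figure D2:**
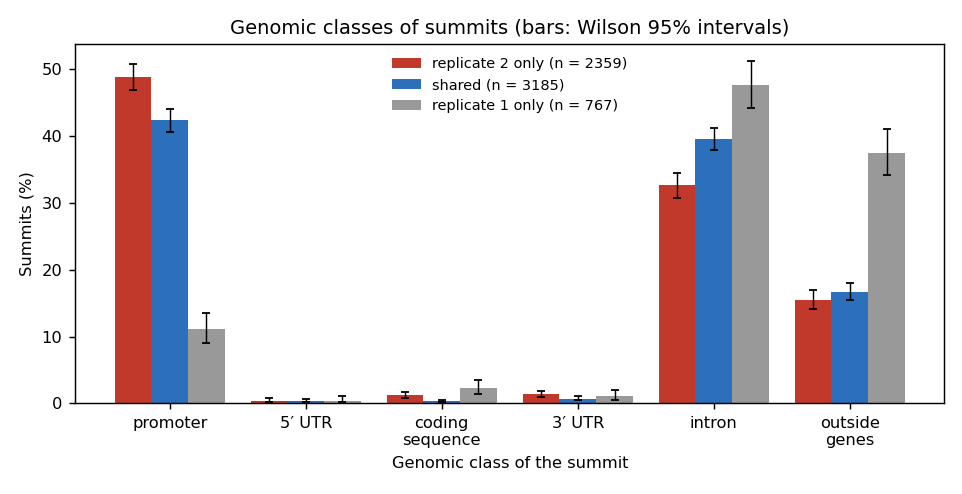
Bars show the share of summits (%) in each of 6 genomic classes for replicate 2 only, shared and replicate 1 only peaks, with Wilson 95% intervals. Promoters hold 48.9% of replicate 2 only summits, 42.4% of shared summits and 11.1% of replicate 1 only summits.

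The promoter summits of the replicate 2 only peaks also lay closer to the start site. Within 100 bp of a TSS lay 612 replicate 2 only summits (25.9%) and 423 shared summits (13.3%), a difference of 12.7 points (10.5 to 14.8, Fisher's exact test, adjusted p = 1.1e-31). Among promoter summits alone these were 53.1% of replicate 2 only and 31.3% of shared summits, a difference of 21.8 points (17.9 to 25.5, Fisher's exact test, adjusted p = 1.1e-27). Start sites on both strands within 500 bp were found at 382 of 1153 replicate 2 only promoter summits (33.1%), against 511 of 1350 shared ones (37.9%, Fisher's exact test, adjusted p = 0.0152). Far from start sites, inside genes or not, the order was the reverse. Over 5000 bp from a TSS lay 403 replicate 2 only summits (17.1%), against 682 shared summits (21.4%, Fisher's exact test, adjusted p = 0.00021). Small RNA genes and transposons made no difference past the threshold. A tRNA gene lay within 500 bp of 5 replicate 2 only and 7 shared summits, and an annotated transposable element held 9 and 4. These contrasts on distance, strand and small RNA genes were chosen after the data were seen.

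Between peaks of like signal, the promoter shares lay further apart in all but the strongest peaks. All replicate 2 peaks were divided into 4 groups of equal size by signal. In the group of lowest signal, 445 of 1012 replicate 2 only summits were at promoters (44.0%), against 78 of 374 shared summits (20.9%). In group 2 these were 423 of 826 (51.2%) and 134 of 560 (23.9%), and in group 3 they were 244 of 444 (55.0%) and 404 of 942 (42.9%). All of these passed, with adjusted p of 4.4e-15, 8.6e-24 and 6.4e-05 by Fisher's exact test. In the group of highest signal, 41 of 77 replicate 2 only summits (53.2%) and 734 of 1309 shared summits (56.1%) were at promoters, a difference of -2.83 points (-14.2 to 8.23) that did not pass (Fisher's exact test, adjusted p = 0.638). With the 4 groups as strata, the difference was 19.2 points (exact conditional test, adjusted p = 2.7e-34). Over the 4 groups the promoter share thus lay between 44.0 and 55.0% in replicate 2 only peaks and between 20.9 and 56.1% in shared peaks. Peaks of like replicate 2 signal still differed in replicate 1, as the rule sets: in the group of lowest signal the median replicate 1 rank was 13031 for replicate 2 only peaks with a counterpart and 2626 for shared peaks. The part of this in the promoter difference was not tested.

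**Figure D3:**
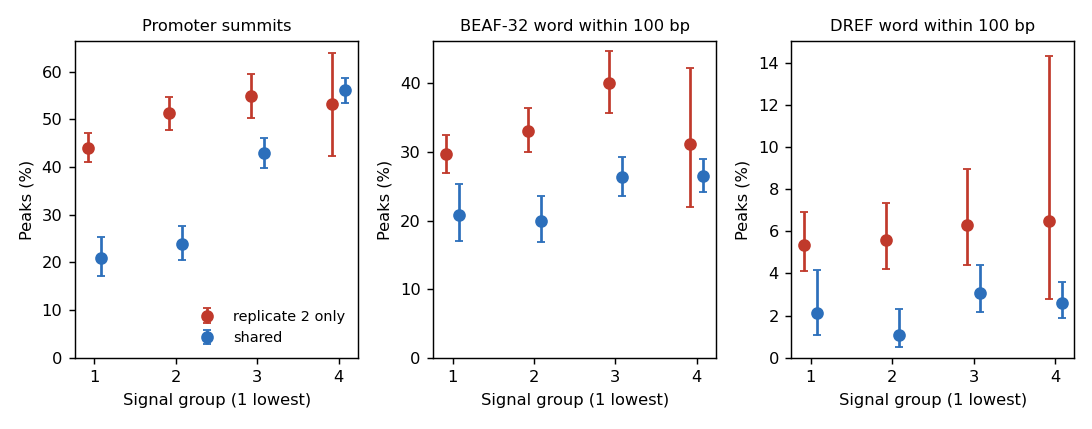
Points show the share of peaks (%) at promoters and with the BEAF-32 and DREF words within 100 bp of the summit, in 4 groups of replicate 2 signal, for replicate 2 only and shared peaks, with Wilson 95% intervals. Promoter shares are 44.0 and 20.9% in the lowest group and 53.2 and 56.1% in the highest.

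The 423 replicate 2 only peaks with no counterpart in the replicate 1 ranked list were richest in promoters. Of them, 251 (59.3%) were promoter summits, against 902 of the 1936 with a counterpart (46.6%), a difference of 12.7 points (7.51 to 17.8, Fisher's exact test, adjusted p = 1.3e-05). The DREF word lay near 35 of them (8.27%), against 98 of the others (5.06%, Fisher's exact test, adjusted p = 0.028). BEAF-32, M1BP and Mef2 words did not differ past the threshold between these groups of replicate 2 only peaks.

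Peaks that were called only in replicate 1 lay elsewhere in the genome. The 767 replicate 1 only peaks had 85 promoter summits (11.1%), so that the replicate 2 only share was 37.8 points higher (34.7 to 40.7, Fisher's exact test, adjusted p = 6.1e-86). Outside protein-coding genes lay 15.5% of replicate 2 only summits, against 37.5% of replicate 1 only summits (Fisher's exact test, adjusted p = 1.9e-34). Coding sequence held 29 replicate 2 only summits (1.23%) and 17 replicate 1 only summits (2.22%), which did not pass (Fisher's exact test, adjusted p = 0.145). A coding share above the 0.283% of shared summits was thus not particular to replicate 2 only peaks. The DREF word lay near 133 replicate 2 only summits (5.64%), against 8 replicate 1 only summits (1.04%, Fisher's exact test, adjusted p = 1.7e-08), and the M1BP word near 65 (2.76%), against 3 (0.391%, Fisher's exact test, adjusted p = 6.7e-05). The Mef2 word lay near 10% of replicate 2 only and 9.91% of replicate 1 only summits, a difference of 0.0955 points (-2.49 to 2.40). The comparison with replicate 1 only peaks was also chosen after the data were seen. The labels give no difference in treatment between the replicates.

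Base composition moved with the set. The sequence within 100 bp of the summit held a median of 36.8% G and C in replicate 2 only peaks and 33.8% in shared peaks. Above the median of all replicate 2 peaks, 35.3%, were 1325 replicate 2 only peaks (56.2%) and 1288 shared peaks (40.4%), a difference of 15.7 points (13.1 to 18.3, Fisher's exact test, adjusted p = 9.3e-31). This held in promoter summits alone, with 21.3 points, and outside promoters, with 10.7 points (Fisher's exact test, adjusted p = 2.9e-26 and 1.9e-08). With signal groups as strata the difference was 10.2 points, and among replicate 2 peaks at an IDR of 0.001 it was 10.02 points, both past the threshold. In the group of highest signal, high GC was found in 39.0% of replicate 2 only and 39.3% of shared peaks, with no test made of that. Among the 767 replicate 1 only peaks, 362 (47.2%) had high GC, a share between those of replicate 2 only and shared peaks. The X chromosome held 451 replicate 2 only peaks (19.1%), against 689 shared peaks (21.6%, Fisher's exact test, adjusted p = 0.0223). This X difference of -2.51 points was not past the threshold when overlap had to cover at least 50% of the peak, with -1.88 points. Among replicate 2 only peaks without a counterpart it was -9.34 points, with 12.3% on X against 21.6% of shared peaks (Fisher's exact test, adjusted p = 3.6e-06). The share of replicate 2 peaks that were replicate 2 only ran between 39.6% on X and 45.4% on 3R over the 5 large arms, and chromosome 4 had 1 of 4.

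Words of broadly used promoters were more frequent near replicate 2 only summits, and AT-rich words and the Mef2 word were less frequent. Of 25 motifs searched within 100 bp of summits on both strands, 5 (20%) were more frequent in replicate 2 only peaks and 4 (16%) less frequent. The BEAF-32 word CGATA lay near 775 replicate 2 only summits (32.9%), against 785 shared summits (24.6%), a difference of 8.21 points (5.80 to 10.6, Fisher's exact test, adjusted p = 5.8e-10). The DREF word TATCGATA lay near 133 (5.64%), against 77 (2.42%), a difference of 3.22 points (2.18 to 4.33, Fisher's exact test, adjusted p = 1.1e-08). Every DREF word contains the BEAF-32 word, and CGATA without a DREF word was found near 642 replicate 2 only summits (27.2%) and 708 shared summits (22.2%). The M1BP word GGTCACACT lay near 65 (2.76%), against 28 (0.879%), a difference of 1.88 points (1.17 to 2.67, Fisher's exact test, adjusted p = 9.1e-07). At least 1 of these 3 words lay near 800 replicate 2 only summits (33.9%, 32.0 to 35.9) and 800 shared summits (25.1%, 23.6 to 26.7). Within signal groups, the BEAF-32 and DREF words each passed in groups 1, 2 and 3, with higher shares in replicate 2 only peaks. Neither passed in the group of highest signal (Fisher's exact test, adjusted p = 0.39 and 0.0728). There BEAF-32 lay near 31.2% of replicate 2 only and 26.5% of shared summits, and DREF near 6.49% and 2.60%.

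**Figure D4:**
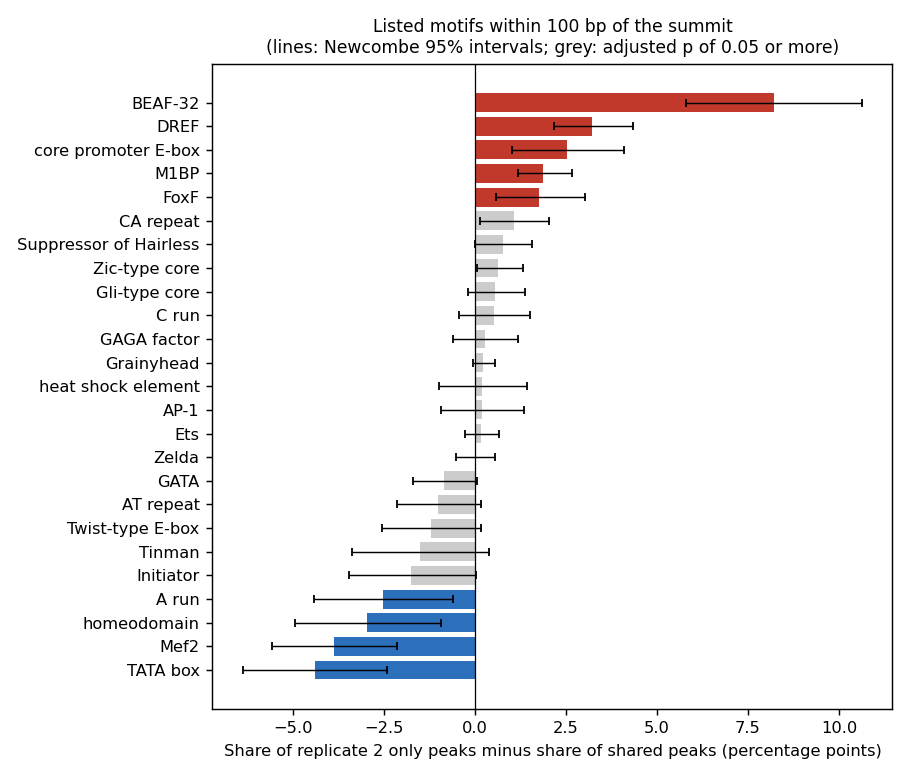
Bars show, for each of 25 motifs, the share of replicate 2 only peaks minus the share of shared peaks with the motif within 100 bp of the summit (percentage points), with Newcombe 95% intervals. BEAF-32 lies 8.21 points above 0 and the TATA box 4.40 points below it, while grey bars did not pass the threshold.

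Of the remaining calls, 2 were for words more frequent in replicate 2 only peaks and 4 for words less frequent. The E-box CAGCTG, found in core promoters, lay near 10.1% of replicate 2 only summits, against 7.60% of shared summits, and turned to a difference of -1.18 points within 200 bp. The FoxF word GTAAACA, bound by forkhead factors such as Biniou, lay near 6.23%, against 4.46%. The adjusted p were 0.0043 and 0.0134 by Fisher's exact test. Less frequent in replicate 2 only peaks were the Mef2 word, near 10% against 13.9% of shared summits, and the TATA box TATAAAA, near 14.6% against 19.0%. Their adjusted p were 8.1e-05 and 8.9e-05 by Fisher's exact test. The homeodomain word TAATTA lay near 15.9% of replicate 2 only and 18.8% of shared summits, and the A run AAAAAAAA near 14.1% and 16.6% (Fisher's exact test, adjusted p = 0.0134 and 0.0298). With signal groups as strata the calls for the Mef2 word (-1.74 points), the homeodomain word (-1.94) and the TATA box (-2.77) were lost.

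None of the 25 motifs was a word listed for Lame duck itself, and the Gli-type core did not pass between the sets. The Gli-type core CCACCCA, which Gli family zinc fingers bind, lay near 57 replicate 2 only summits (2.42%) and 59 shared summits (1.85%), a difference of 0.564 points (-0.197 to 1.38, Fisher's exact test, adjusted p = 0.204). It was found in 3.71% of genome windows of the same length, a higher share than at either kind of summit, with no test made of that. The Zic-type core CCCGCTG lay near 39 (1.65%) and 32 (1.01%), a difference of 0.649 points (0.0459 to 1.32, Fisher's exact test, adjusted p = 0.08997), and in 1.83% of genome windows. The Gli-type core passed where overlap had to cover at least 50% of the peak, with 0.968 points (Fisher's exact test, adjusted p = 0.0297), and the Zic-type core with signal groups as strata, with 0.870 points (exact conditional test, adjusted p = 0.0441). The other 14 motifs also did not pass. Those of transcription factors were GAGAGAG of GAGA factor, CACTTNA of Tinman, CAGGTAG of Zelda, the Twist-type E-box CATATG, the Grainyhead word AACCGGTT, CCGGAAG of Ets factors, GTGGGAA of Suppressor of Hairless and AGATAAG of GATA factors. The heat shock element was searched as GAANNTTC. AP-1 was searched as TGANTCA and the Initiator as TCAGTT. The simple repeats were the C run CCCCCC, the CA repeat CACACACA and the AT repeat ATATATAT. Differences over the 16 motifs that did not pass ran from -1.74 to 1.06 points. The Initiator passed under 4 alternative settings, with -5.39 to -2.69 points, and the CA repeat under 5, with 0.802 to 1.62 points.

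The DREF and M1BP words lay mostly at promoter summits, whereas the short BEAF-32 word also occurred elsewhere, no more often than in genome windows. At promoter summits the DREF word was near 10.9% of replicate 2 only and 5.19% of shared summits, against 6.45% of windows of the same length around all start sites and 0.564% of genome windows. The M1BP word was near 5.29% and 1.85%, against 4.42% of start site windows and 0.201% of genome windows. The BEAF-32 word was near 45.9% and 33.0%, against 37.1% and 21.4%. Set against all start sites, replicate 2 only promoter summits held all 3 words more often and shared promoter summits less often, with no test made of that. The positions are unlike: start site windows are centred on a TSS, whereas promoter summits lie up to 500 bp from one. Of promoter summits, 53.1% of replicate 2 only and 31.3% of shared ones lay within 100 bp of a TSS. The part of position in these shares was not tested. In promoter summits alone all 9 calls were kept and 11 motifs passed. Outside promoters none of the 25 passed with Fisher's exact test, and 4 had an unadjusted p under 0.05. There the DREF word was near 0.580% of replicate 2 only and 0.382% of shared summits, and the BEAF-32 word near 20.4% and 18.5%. With strata of signal group and promoter position, BEAF-32 (7.01 points) and DREF (2.12 points) passed the exact conditional test, with adjusted p of 1.8e-05 and 0.0039, and the other 7 calls were lost.

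The open search over words of 7 bases was led by the same promoter words. Of 8192 words, 107 (1.31%) were more frequent in replicate 2 only peaks and 109 (1.33%) less frequent. The first was ATCGATA, the DREF word less its first base, near 270 replicate 2 only summits (11.4%) and 165 shared summits (5.18%, Fisher's exact test, adjusted p = 1.7e-13). CTATCGA (8.52 against 3.64%) and ACTATCG (6.91 against 3.33%) overlap it, and 15 of the 107 words hold CGATA. The word GGTCACA, from the M1BP word, lay near 5.002% of replicate 2 only and 2.13% of shared summits, and AGTGTTG, which belongs to no motif searched, near 8.05% and 4.40% (Fisher's exact test, adjusted p = 1.0e-05 and 2.8e-05). Among the less frequent words, 40 of 109 had no G or C, against 0 of the 107 more frequent ones. The word TTTAAAA was the first of these, near 20.1% of replicate 2 only and 26.3% of shared summits (Fisher's exact test, adjusted p = 9.0e-05). The leading less frequent word was CAGTGCA, near 151 replicate 2 only summits (6.40%) and 350 shared summits (11.0%, Fisher's exact test, adjusted p = 5.5e-06), and AGTGCAC, which overlaps it, was near 3.73% and 7.002%. Overlapping words are not independent of each other.

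The replicate 2 only peaks of highest signal lay mostly at promoters. Of the 20 strongest, 15 were promoter summits and 14 had no counterpart in the replicate 1 ranked list. The first was at Gapdh2, which encodes the glycolytic enzyme glyceraldehyde-3-phosphate dehydrogenase, on chromosome X (15867821 to 15868132). Its signal was 674.9, its summit lay 164 bp from the TSS, and the nearest replicate 1 ranked summit was 4292 bp away. The next was at nebu on 3L (12843114 to 12843416), with a signal of 599.5, 154 bp from the TSS and again with no counterpart. CG7737 followed with 465.5, 133 bp from the TSS, and a replicate 1 peak of signal 71.5 whose −log10 IDR was 1.77. PIG-Q (310.8), of glycosylphosphatidylinositol anchor synthesis, had no counterpart and was in neither joint set, whereas 17 of the 20 were in the wider one. P5cr (266.7), a proline synthesis enzyme, lay at the boundary of the rule, with a replicate 1 −log10 IDR of 1.99. Ufc1 (242.4), of the ufmylation pathway, was the only one of the 20 with a DREF word near its summit. For comparison, the strongest shared peak, at CG14100, had a signal of 2879.

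Among the 20 strongest were single peaks next to tin and bin, genes of mesoderm regulators. At tin, which encodes the homeodomain protein Tinman of the heart and dorsal mesoderm, a replicate 2 only peak with a signal of 328.0 lay 214 bp from the TSS on 3R (21378634 to 21378890), and the nearest replicate 1 ranked summit was 3952 bp away. It was in the wider joint set and not in the conservative one. The same peak also lay 1362 bp from a TSS of mod(mdg4). At bin, the gene of the visceral mesoderm factor Biniou, a replicate 2 only peak with a signal of 242.6 lay 1376 bp from the TSS on 3L (6989085 to 6989327). A summit of the replicate 1 set was 113 bp away in a peak that did not overlap. The bin locus also held 1 shared summit, and whether that replicate 1 peak pairs with it was not examined. At Msr-110 (253.3) a summit of the replicate 1 set lay 157 bp away, again in a peak that did not overlap. The peak nearest to cwo, a repressor of the circadian clock, had a signal of 265.5 and lay in an intron 5633 bp from a TSS. The only replicate 2 only peak on chromosome 4 (264.3) lay 19088 bp from its nearest TSS, that of lgs, a coactivator of wnt signalling.

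At lmd itself and at sns no replicate 2 only summit lay in the locus, whereas Mef2 was among the 10 genes with most of them. The locus of a gene is taken as its body with 2 kb on each side. The lmd locus held 0 replicate 2 only and 0 shared summits: the closest was a shared summit 2011 bp from the gene, with a signal of 417.7, and the nearest replicate 2 only summit was 10656 bp away, at CG34375. Mef2 held 5 replicate 2 only and 3 shared summits. The replicate 2 only peaks had signals of 64.4, 57.8, 71.2, 103.8 and 71.7, in order of position, and all but the second lay above the median of 61.8. The shared ones had 63.1, 305.9 and 1010, the last nearest to the TSS of Pdrg1. The last replicate 2 only summit lay 76 bp from a Mef2 TSS and its replicate 1 counterpart ranked 22586. Those with 57.8 and 71.2 were overlapping peaks that shared 1 counterpart, with rank 6156. The sns locus held 0 and 0 summits, and a replicate 2 only summit 4166 bp away was at the RyR promoter, with a signal of 55.1.

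Counts over gene lists showed where replicate 2 only sites lay relative to all genes. Of 13945 protein-coding genes, 3155 (22.6%) had a replicate 2 only summit in the locus and 3514 (25.2%) a shared one, while 1473 (10.6%) had a replicate 2 only summit within 500 bp of their own TSS and 1780 (12.8%) a shared one. Long genes hold more summits by their length, which was not taken into account, and a summit in a locus does not show which gene a site regulates. Over all genes with a replicate 2 only summit, the strongest such summit had a median signal of 68.6. The lists are described by counts, with no test.

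Among muscle genes, transcription factors and sarcomere genes stood near the share of all genes for replicate 2 only peaks. Of 35 mesoderm and muscle transcription factor genes, 7 (20%) had a replicate 2 only summit in the locus and 14 (40%) a shared one, and 6 of the 7 had both. These were 8 (33.3%) and 12 (50%) of 24 myoblast fusion genes, and 7 (24.1%) and 10 (34.5%) of 29 sarcomere genes. At kirre, the founder cell receptor of fusion, there were 11 replicate 2 only summits, the most of any gene, and 20 shared ones over a gene of 394149 bp. The strongest of the 11 had a signal of 114.5. Arp2, an actin nucleator, had a replicate 2 only summit in an intron (158.7) with no counterpart, and WASp, which activates it, had a promoter summit (84.99) that also lies in the Apc locus. Muscle attachment genes had more: 12 of 19 (63.2%) held a replicate 2 only summit and 10 (52.6%) a shared one, with a median signal of 70 for the strongest replicate 2 only summit. They included Pax, the gene of paxillin (205.6, 251 bp from the TSS, no counterpart), LanB2, a laminin chain (127.9), and mys, an integrin β subunit (83.4, 28 bp, no counterpart). In the sarcomere list, the strongest summit in the Actn locus (148.9) was nearest to the TSS of usp.

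Ribosomal protein genes were above the share of all genes at their start sites in both sets. Of 92 cytoplasmic ribosomal protein genes, 22 (23.9%) had a replicate 2 only summit within 500 bp of their TSS and 38 (41.3%) a shared one. Of 73 mitochondrial ribosomal protein genes these were 16 (21.9%) and 14 (19.2%). RpS29 had a signal of 160.0 with its summit 6 bp from the TSS, and its DREF word is shown above. RpL26 had 147.1 with its summit 43 bp away and no counterpart, and RpS16 had 136.4 at 54 bp. mRpS7 had 118.2 at 182 bp with no counterpart. Of 51 translation factor genes, 8 (15.7%) had a start site summit in each set, eEF5 (98.9, 17 bp) among the replicate 2 only ones with no counterpart. The proteasome list had 6 of 48 (12.5%) and 5 (10.4%), and the aminoacyl-tRNA synthetases 2 of 31 (6.45%) and 7 (22.6%).

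Set against all protein-coding genes, with a replicate 2 only summit in 22.6% and a shared one in 25.2%, other lists went either way. Hedgehog and wnt genes had a replicate 2 only summit in 10 of 18 loci (55.6%) and a shared one in 6 (33.3%). Among them were fz, a receptor of Wingless (216.7, 1787 bp from the TSS, no counterpart), Axn, a scaffold of the β-catenin destruction complex (99.2, next to RpS28a), and sgg, the kinase of that complex (98.6). Notch, EGFR and FGF genes had 12 (52.2%) and 16 (69.6%) of 23, with mam, a coactivator of Notch (91.0), and Egfr (89.3). Germ line genes had 6 (54.5%) and 4 (36.4%) of 11, with vas, an RNA helicase of germ cells (105.2), at a start site it shares with solo. Heat shock genes had 4 (23.5%) and 10 (58.8%) of 17, and none of the 17 had a replicate 2 only summit at its start site, against 6 with a shared one. Of these 4 loci, 3 share a single replicate 2 only peak nearest to Fdx1. Chromatin and insulator genes had 7 (30.4%) and 17 (73.9%) of 23, with CTCF (97.4, 220 bp) and trx (136.5, in an intron) among the 7. Segmentation and Hox genes had 3 (12.5%) and 3 (12.5%) of 24, with Abd-B (111.4) and Dfd (94.8) among those with a replicate 2 only summit.

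In the lists for neural and epithelial tissues, the share with a replicate 2 only summit ran from 16.7 to 31.2%. The shares of all protein-coding genes were 22.6% for replicate 2 only and 25.2% for shared summits. Neurons had 5 (31.2%) and 4 (25%) of 16, neural progenitors 3 (16.7%) and 5 (27.8%) of 18, glia 3 (30%) and 6 (60%) of 10, and epidermis and trachea 5 (31.2%) and 8 (50%) of 16. All 3 of the glia loci had both kinds of summit. The neural progenitor locus with the strongest was brat (126.5), and SoxN had a promoter summit (45.1) whose counterpart ranked 65400.

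**Figure D5:**
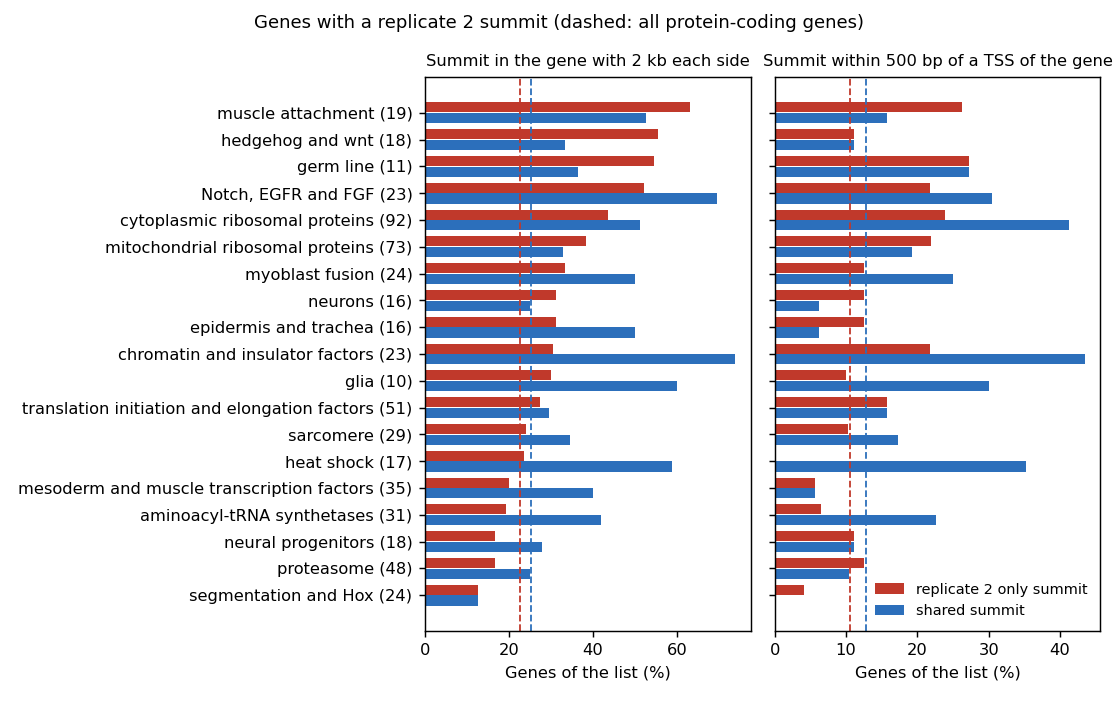
Bars show the share of genes (%) in each of 19 lists with a replicate 2 only or a shared summit in the locus (left) and within 500 bp of a TSS of the gene (right), and dashed lines give the shares of all protein-coding genes. Muscle attachment genes lead for replicate 2 only summits in the locus with 63.2%, against 22.6% of all genes.

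The genes with the most replicate 2 only summits included long and short ones. After kirre came Eip75B, an ecdysone-induced nuclear receptor, with 8 replicate 2 only and 2 shared summits, and bun, of the TSC-22 family, with 7 and 1. CG3764 and Mob2 had 6 and 1 and 6 and 3, and pyd, a junction protein, 6 and 3. MESK2 had 5 and 1, Sarm 5 and 1, and Svil 5 and 5. Per kilobase of locus, CG3764 had 0.275 replicate 2 only summits, against 0.0276 at kirre.

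In coding sequence, the strongest of the 29 replicate 2 only summits were nearest to CG31259 (96.1), Usp1 (82.5) and bif (80.2), with counterparts of signal 45.4, 32.9 and 33.3 in replicate 1. In 3′ UTRs the strongest were at CG8206 (168.2) and raskol (113.4). These genes were named after their values were seen.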

How the data were processed

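ChIP-seq peak lists of 2 biological replicates were used, in dm6 coordinates, per the labels. Which aligner and peak caller made them is not given in the sources used here. Signal, for each peak, is the authors' deposited value with no stated normalization, so it was used only to rank or describe peaks within 1 list. The score in the deposited thresholded sets runs from 830 to 1000, and 830 corresponds to an IDR of about 0.01. In the deposited ranked lists, with 115082 and 90837 peaks for replicates 1 and 2, a further column is the −log10 of the IDR with a largest value of 5. Ranks were taken by signal over the whole list. No read counts were analysed, so the depth is unknown.

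Thresholded peaks on the 6 main arms, 3929 and 5544 for replicates 1 and 2, were placed by summit with Ensembl annotation release 115 as promoter (500 bp) first and then, in this order, as 5′ UTR, coding, 3′ UTR, intronic or outside genes. The RefSeq Release 6 genome gave the sequences, which are shown for peaks off arm 2R. The Mef2 motif was searched as a degenerate word. Shares were compared between replicate 2 only and shared peaks with two-sided Fisher's exact tests, Benjamini-Hochberg adjusted within each family at 0.05: 6 classes, X and high GC together, 25 motifs, 8192 words, 7 and 3 position contrasts, 12 tests within signal groups, 6 contrasts among replicate 2 only peaks and 33 against replicate 1 only peaks. The last 5 families were added after the data were seen. Stratified differences are Mantel-Haenszel with an exact conditional test. Genes named are those nearest to the 20 strongest replicate 2 only peaks, lmd, Mef2 and sns, up to 4 genes per list by signal, and the 10 genes with most replicate 2 only summits. The members and lists were chosen with earlier results of these data known. Python 3.11.15, numpy 2.4.6, pandas 2.3.3, scipy 1.17.1 and statsmodels 0.14.6 were used, and the tests were checked on simulated data. The ranked joint lists were not used here.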

Additional observations from a re-analysis of the deposited data

How the results depend on the processing

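Every alternative that tested the promoter share or the share with high GC kept it higher in replicate 2 only peaks, past the threshold. The separate comparison within signal groups did not do so throughout. In the group of highest signal the promoter difference was -2.83 points and did not pass. High GC was found there in 39.0% of replicate 2 only and 39.3% of shared peaks, with no test. The share of replicate 2 peaks that were replicate 2 only was 47.1% when overlap had to cover at least 50% of the peak, 36.1% against a replicate 1 list at an IDR of 0.05, 7.63% with no replicate 1 ranked peak allowed, and 31.8% among replicate 2 peaks at an IDR of 0.001. The X difference lost its call at 50% overlap (-1.88 points, Fisher's exact test, adjusted p = 0.0896), in the lower 50% of signal (-2.14 points) and, added after seeing the data, in promoter summits alone (-1.15 points). At an IDR of 0.001, 2 classes, 5 motifs and 32 words passed. Within 200 bp of summits, 5 motifs and 60 words passed, and 3 of the 9 motif calls were kept. Words past the threshold were 31 for members without a replicate 1 ranked peak, 102 in promoters and 5 outside them. Motifs were 0 outside promoters and 2 with strata of signal group and promoter. Direction turned, within 200 bp, for the E-box CAGCTG (-1.18), the Zic-type core (-0.139) and GAGA factor (-2.17, Fisher's exact test, adjusted p = 0.0354, although within 50 bp it passed the other way with 0.672 and an adjusted p of 0.0082); for GAGA factor also against the IDR 0.05 list (-0.0283), without ranked peaks (-0.336) and at promoters (-0.0990); for the Gli-type core in the lower 50% of signal (-0.286) and at promoters (-0.105); for the 5′ UTR class against the IDR 0.05 list (-0.0176), without ranked peaks (-0.109), at an IDR of 0.001 (-0.0509) and with a promoter of 250 bp (-0.0439); for coding sequence without ranked peaks (-0.0462); and outside genes at 50% overlap (0.116). Of the other 13 motifs, direction turned in 33 of 156 combinations with an alternative, none of these past the threshold, and 13 combinations passed in the direction first found. The causes were not tested. Neither replicate could be left out, since the rule needs both. No paired analysis was possible because both samples belong to 1 group. Unknown depth limits which weak peaks could be called.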
